A study of Mus musculus with 8 samples.

Results

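The kinesin superfamily was examined in EpCAM-positive cells sorted from pancreatic tumours of mice. The mice were treated with gemcitabine and either an antibody that neutralises LIF (leukaemia inhibitory factor) or a control IgG. Members were all genes whose symbol is Kif followed by a digit, or Kifc1, Kifc2 or Kifc3, which gave 43 of the 24537 genes in the count table. Of these, 40 encode kinesin motors. The other 3 are Kif1bp, which encodes a binding protein of a transport kinesin and no motor, the antisense RNA gene Kif16bos and the pseudogene Kif4-ps.

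Kinesins are motor proteins that hydrolyse ATP to walk along microtubules or to take microtubule ends apart. One set builds the mitotic spindle, moves chromosomes and completes cytokinesis, and its genes are transcribed mainly in dividing cells. Another set carries vesicles, organelles, mRNA and signalling proteins through the cytoplasm, in epithelial cells towards the apical or basal surface and in neurons along the axon. The 40 motor genes were divided by textbook role into 13 mitotic kinesins, 15 transport kinesins and 12 others, which include ciliary motors and regulators of microtubule growth.

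RNA came from EpCAM-positive cells that were sorted from 8 tumours, 1 mouse and 1 library each. The 4 mice of the anti-LIF arm (KPCL-PCC_227_GA, KPCL-PCC_310_GA, then KPCL-PCC_354_GA, then KPCL-PCC_391_GA) were dosed with gemcitabine (50 mg/kg, days 1 and 4) and with anti-LIF antibody (25 mg/kg, days 1, 3 and 5). The 4 mice of the IgG arm (KPCL-PCC_203_G, KPCL-PCC_343_G, then KPCL-PCC_345_G, then KPCL-PCC_393_G) received the same gemcitabine with control IgG on the same days. All mice were FVB/NJ, carried a luciferase reporter that needs Cre to be switched on (Rosa26LSL-Luc) and Pdx1-Cre, which is active in pancreatic progenitors and their progeny. Treatment began at an age of 42 to 43 days, and tumours were removed whole on day 6, when the mice were about 48 days old. Gemcitabine, a nucleoside analogue that blocks DNA synthesis, was given to both arms, so every value below is a difference between antibodies under gemcitabine. Library values are given in the order just listed, in CPM (counts scaled to a common library size by TMM, a trimmed mean of expression ratios), and each p is adjusted over all 14711 tested genes from edgeR's quasi-likelihood test with a threshold of 0.05.

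Counts in genes ranged from 15135457 to 18972281 per library. Of the 14711 tested genes 32.2% were called, 15.7% higher and 16.5% lower with anti-LIF, with a median log2 fold change of -0.0063. Of the calls 48.7% were higher, but 28.6% with libraries scaled by size alone, 31.3% on FPKM with a pseudocount of 1 and 31.5% with one of 0.1, where the median moved to -0.16, -0.10 and -0.13. The sort marker Epcam was expressed in every library, with 194, 326, 353 and 347 CPM with anti-LIF and 561, 664, 595 and 479 CPM with IgG. A list of 24 epithelial genes held 0.228% to 0.442% of counts with anti-LIF and 0.709% to 0.863% with IgG, and 20 of them fell and 0 rose. A list of 25 myeloid genes, none of them at 0, held 3.31% to 4.94% of counts with anti-LIF and 1.74% to 2.24% with IgG, and 16 rose and 0 fell. Of these, Ptprc had 505, 470, 579 and 488 CPM with anti-LIF and 244.5, 319, 321 and 239 CPM with IgG. Cd68 had 403 to 564 CPM with anti-LIF and 324 to 513 CPM with IgG. Ptprc rose by 0.86 ± 0.13 on the log2 scale (adjusted p = 0.0044), and Cd68 did not pass (0.17 ± 0.16, adjusted p = 0.429). A list of 20 acinar genes held 0.34% to 1.81% with anti-LIF and 0.0467% to 0.239% with IgG, and 15 rose and 0 fell. In bulk RNA of this kind fewer cells of a type and less RNA per cell cannot be told apart. The part of these shifts in the kinesin values below was not tested.

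Of the 40 motor genes, 37 had enough counts to be tested. With anti-LIF 5 of them rose and 7 fell, shares of 13.5% and 18.9% that lie near the 15.7% and 16.5% of all tested genes. By role, 3 of 12 tested mitotic kinesins rose (25.0%) and 0 fell, while 0 of 15 transport kinesins rose and 5 fell (33.3%). These are small counts: without KPCL-PCC_354_GA 1 mitotic kinesin rose and 2 transport kinesins fell, and without KPCL-PCC_343_G 2 and 1. Median log2 fold changes were 0.49 for the mitotic and -0.27 for the transport kinesins. Among the others, 2 of 10 rose and 2 fell. The 5 higher calls were 3 without KPCL-PCC_343_G or KPCL-PCC_345_G and 2 without KPCL-PCC_354_GA, and the 7 lower calls were 3 without KPCL-PCC_343_G and 4 without KPCL-PCC_354_GA.

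**Figure D1:**
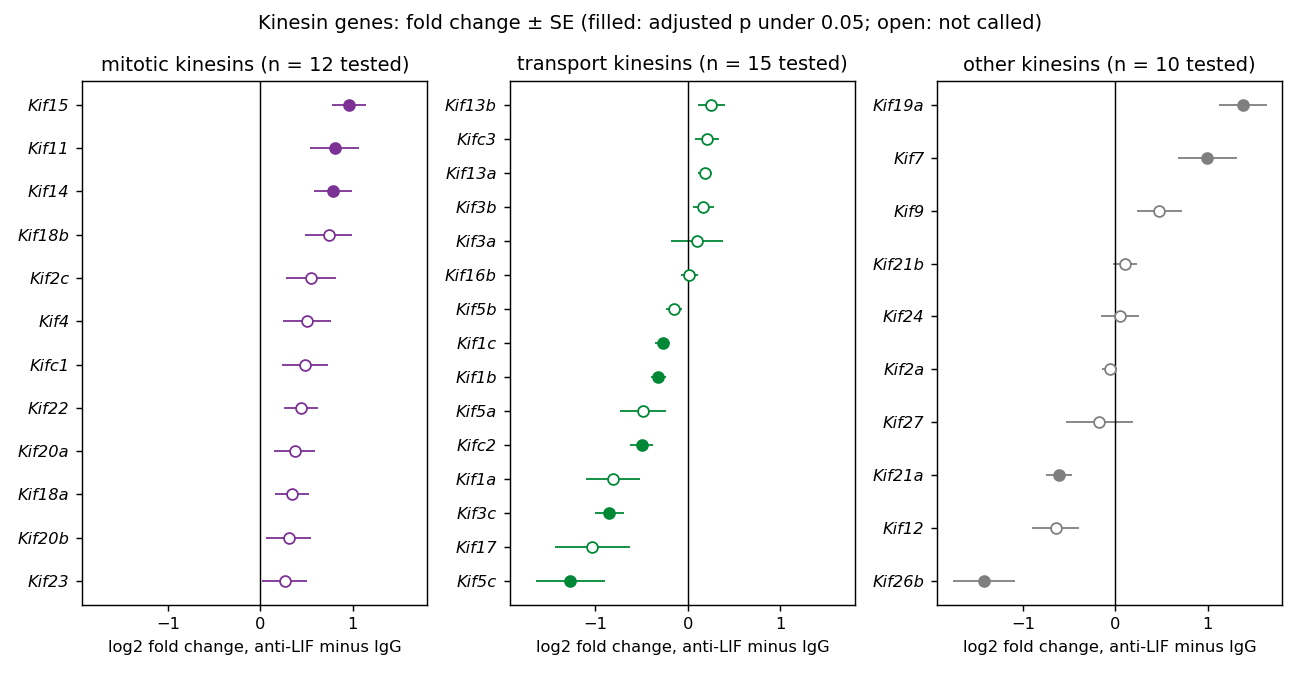
Log2 fold change, anti-LIF minus IgG, with its standard error for the 37 tested kinesin genes in 3 classes; filled points passed an adjusted p under 0.05. The 12 mitotic kinesins all lie above 0, from 0.26 for Kif23 to 0.96 for Kif15, whereas transport kinesins run from -1.27 for Kif5c to 0.26 for Kif13b.

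Per transcript length, transport kinesins were the most abundant motors. In the FPKM values deposited by the authors (reads per kilobase of transcript, scaled to the library total), Kif1c, a carrier of vesicles between Golgi, endosomes and cell edge, led with 28.1 ± 2.4 FPKM with anti-LIF and 37.2 ± 3.55 FPKM with IgG (mean ± SD, n = 4 each). Kif5b, the ubiquitous heavy chain of conventional kinesin, followed with 23.6 ± 2.86 FPKM with anti-LIF and 28.6 ± 2.54 FPKM with IgG. Kif3b, a subunit of the kinesin-2 motor that also serves the cilium, and Kifc3, a minus-end motor at adherens junctions, stood at means of 19.8 and 18.8 FPKM over the 8 libraries. Neighbours in this order overlapped in their library values, with the exception of Kifc3 and the next gene Kif1b. Every Kifc3 value (15.4 to 21.9 FPKM) lay above every Kif1b value (8.88 to 14.0 FPKM). For both genes the FPKM values use another transcript than the counts, and FPKM depends on transcript length. The most abundant mitotic kinesin, Kif23, ranked 11, and 0 of 13 mitotic kinesins exceeded 10 FPKM against 5 of 15 transport kinesins. Summed FPKM of the transport class exceeded that of the mitotic class 3.89-, 3.26-, 2.76- and 3.79-fold in the anti-LIF libraries and 4.35-, 8.1-, 5.26- and 3.98-fold in the IgG libraries. All 4 anti-LIF ratios were below all 4 IgG ratios, and the largest was that of KPCL-PCC_343_G.

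**Figure D2:**
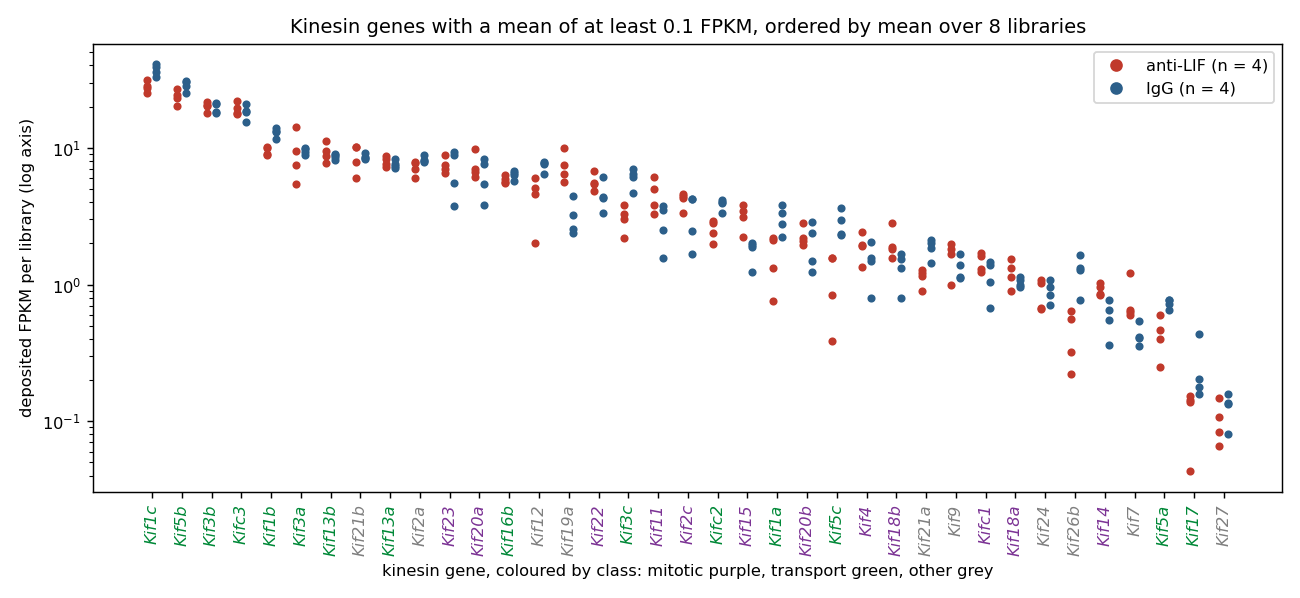
Deposited FPKM on a log axis for each kinesin gene with a mean of at least 0.1 FPKM, 1 point per library (anti-LIF left, IgG right), ordered by the mean over 8 libraries. Transport kinesins take the first 7 places, from 32.6 FPKM for Kif1c to 8.97 FPKM for Kif13b.

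The mitotic kinesins were higher with anti-LIF by small amounts that varied between tumours. Kif15, Kif14 and Kif11 rose, 1.73- to 1.95-fold, and all 12 tested members had a log2 fold change above 0, against 49.4% of all tested genes. This direction held for each of the 12 under all 18 alternative settings of scaling, filter, test and left-out library. Those settings reuse the same libraries, so their agreement is not separate support. The 12 genes also varied together and are not 12 independent observations: KPCL-PCC_343_G was the lowest of all libraries for 11 of them. The shared direction depends on the division of classes as well. Kif2a, a relative of Kif2b and Kif2c that was placed among the others, lay below 0 (-0.061). Kif2a stayed below 0 under all 18 alternatives, from -0.215 to -0.0279. The share called, 3 of 12 or 25.0%, stands beside 15.7% of all tested genes called higher. At an unadjusted p under 0.05 edgeR found 0 mitotic kinesins lower, which follows from the log2 fold changes above 0 in all 12. DESeq2 and limma-voom called 0 lower at an adjusted p under 0.05.

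Kif15 (chromosome 9, 122951081 to 123018733, in mm10 as for all genes here) encodes a motor that holds spindle poles apart and can stand in for Kif11. It had 15.6, 21.0, 23.4 and 19.1 CPM in the anti-LIF libraries, against 11.2, 7.25, 11.6 and 10.6 CPM in the IgG libraries. The arms did not overlap, and the lowest value was that of KPCL-PCC_343_G. Kif15 rose 1.95-fold (log2 fold change 0.96 ± 0.18 SE, adjusted p = 0.00704), and the call held under all 18 alternatives.

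Kif11 (chromosome 19, 37376403 to 37421859) encodes Eg5, the motor that slides antiparallel microtubules to separate the spindle poles. Its levels were 22.7, 30.4, 37.1 and 23.4 CPM with anti-LIF and 20.8, 9.22, 14.9 and 19.9 CPM with IgG. These values did not overlap either, although the lowest anti-LIF library was close to the highest IgG library. Kif11 rose 1.75-fold (0.81 ± 0.26, adjusted p = 0.0454), just inside the threshold. The call was lost with libraries scaled by size alone (0.66) or by upper quartile (0.78), on FPKM with a pseudocount of 1 (0.54) or 0.1 (0.69), and without any of IgG libraries KPCL-PCC_343_G (0.61), KPCL-PCC_345_G (0.77) and KPCL-PCC_393_G (0.92) or anti-LIF libraries KPCL-PCC_310_GA (0.78), KPCL-PCC_354_GA (0.66) and KPCL-PCC_391_GA (0.89), with adjusted p over the 18 alternatives from 0.0132 to 0.111.

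Kif14 (chromosome 1, 136467848 to 136530819) encodes a midbody motor needed for cytokinesis. It was low in every library, with 10.3, 10.02, 10.8 and 8.87 CPM with anti-LIF and 7.40, 3.68, 5.67 and 6.38 CPM with IgG. All anti-LIF values were higher than all IgG values. Kif14 rose 1.73-fold (0.79 ± 0.21, adjusted p = 0.0215). Its call was lost with libraries scaled by size alone (0.63), on FPKM with a pseudocount of 0.1 (0.61) and without KPCL-PCC_354_GA (0.76), with adjusted p up to 0.0626.

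The 9 other tested mitotic kinesins did not pass. Kif18b, a plus-end depolymerase of astral microtubules, was nearest, with 9.004, 7.68, 11.9 and 6.65 CPM with anti-LIF and 6.37, 3.24, 5.47 and 6.00 CPM with IgG (0.74 ± 0.26, adjusted p = 0.0538). Its arms did not overlap, which was so for 4 of 12 mitotic kinesins in this direction and for 17.6% of all tested genes (35.7% in either direction). Kif2c, the centromere-bound depolymerase MCAK, differed by 0.55 ± 0.27 (adjusted p = 0.148), and the chromokinesins Kif4 and Kif22, which push chromosome arms away from the poles, by 0.50 and 0.44 (adjusted p = 0.168 and 0.0966). The minus-end motor Kifc1, which clusters spindle poles, differed by 0.49 and Kif18a, which dampens chromosome oscillations, by 0.34. Exons of Kif4 and of Kif20a overlap those of Pdzd11 and of Cdc23 on the opposite strand, and without a stated strand setting their reads cannot be told apart.

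The cytokinesis motors of the central spindle did not pass. Kif23, the motor subunit of centralspindlin, had 32.2, 38.3, 32.5 and 30.5 CPM with anti-LIF and 34.8, 15.7, 23.4 and 37.5 CPM with IgG (0.26 ± 0.25, adjusted p = 0.438). Kif20a, which brings the chromosomal passenger complex to the midzone, had 30.8, 29.2, 43.0 and 31.0 CPM with anti-LIF and 30.4, 16.4, 23.4 and 33.5 CPM with IgG (0.37 ± 0.22, adjusted p = 0.231). Its relative Kif20b differed by 0.31 ± 0.24 (adjusted p = 0.356). In Kif23, Kif20a and Kif20b the IgG libraries KPCL-PCC_203_G and KPCL-PCC_393_G reached the anti-LIF range and KPCL-PCC_343_G lay far below it. Kif2b, a depolymerase known mainly from testis, had 0 of 65465732 counts with anti-LIF and 0 of 70022704 with IgG, which allows up to 0.0458 CPM with anti-LIF and 0.0428 CPM with IgG at 3 counts per arm, for counting error only.

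A single IgG tumour carried much of the spread. Library KPCL-PCC_343_G was the lowest of the 8 for 11 of 12 mitotic kinesins, with Kif18a the exception, and KPCL-PCC_354_GA was the highest of the anti-LIF arm for 10 of 12. Summed over the class, mitotic kinesins stood at 188, 204, 238 and 179 CPM with anti-LIF and 166, 89.3, 131 and 180 CPM with IgG. The arms of this sum overlap, since KPCL-PCC_393_G lies just above KPCL-PCC_391_GA. Without KPCL-PCC_343_G the median log2 fold change of the class was 0.34, and without KPCL-PCC_354_GA only 1 mitotic kinesin, Kif15, was called. Acinar markers held 0.0467% of counts in KPCL-PCC_343_G and 1.81% in KPCL-PCC_354_GA, the lowest and the highest of the 8. Acinar shares in the anti-LIF libraries were 0.797%, 0.956%, 1.81% and 0.34%, which rank these libraries as their mitotic sums do. In the IgG arm KPCL-PCC_393_G did not keep this order. With the highest mitotic sum of that arm it held 0.0994%, below KPCL-PCC_345_G (0.138%) and KPCL-PCC_203_G (0.239%). KPCL-PCC_343_G was also lowest for lymphoid (0.00273%) and endothelial genes (0.00612%), but not for epithelial, myeloid, fibroblast or endocrine and neural genes. The part of these shares in the mitotic values was not tested.

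**Figure D3:**
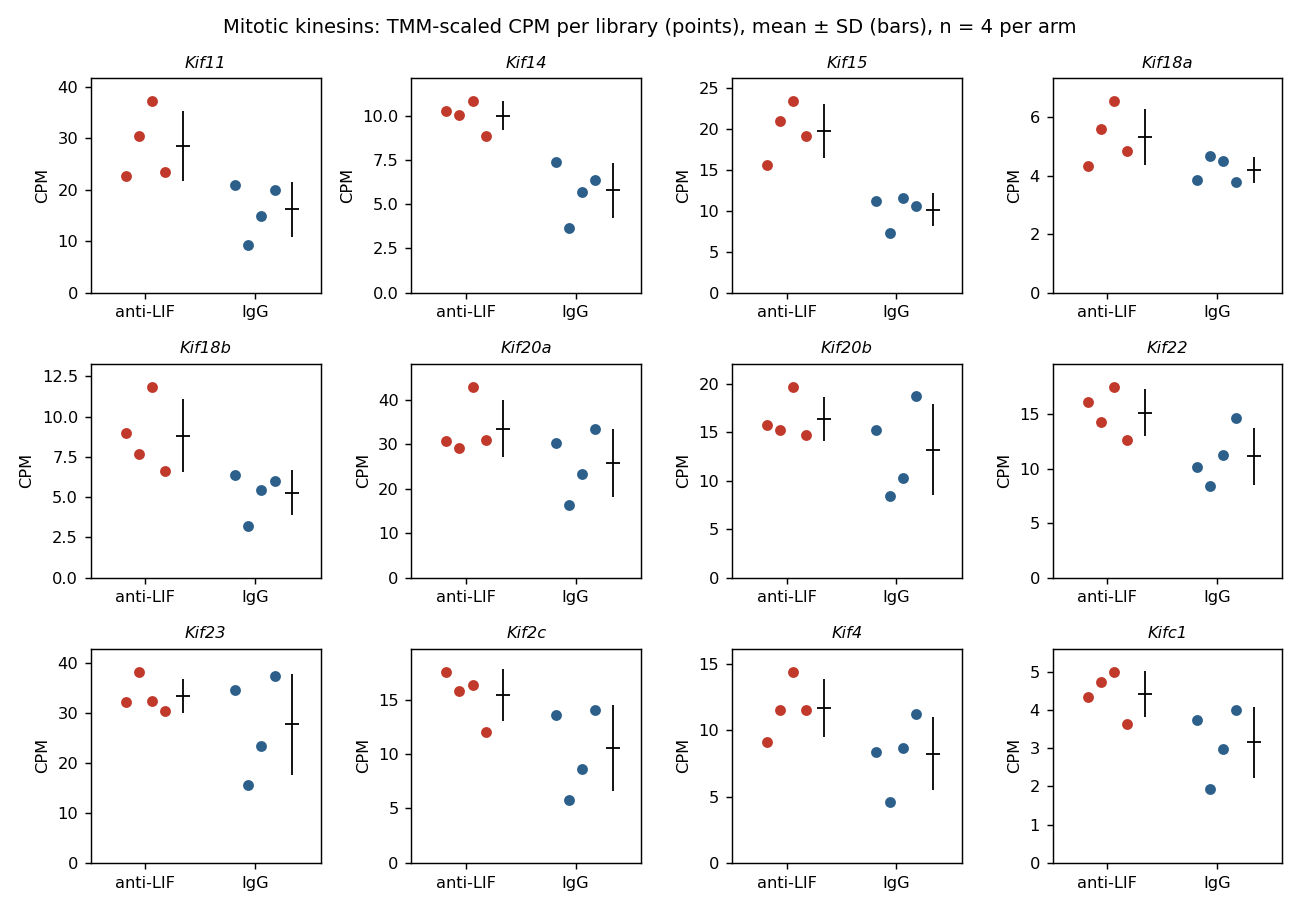
TMM-scaled CPM of the 12 tested mitotic kinesins in each library, anti-LIF left and IgG right, with mean ± SD (n = 4 per arm). Anti-LIF and IgG libraries do not overlap for Kif11, Kif14, Kif15 and Kif18b, and the lowest IgG point is KPCL-PCC_343_G in 11 of 12 panels.

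Many promoters of genes expressed in G2 and mitosis carry a CHR element (cell cycle genes homology region) with the letters TTTGAA near the start site, often with CCAAT boxes upstream. Promoters were read from RefSeq (GRCm38.p6, the same chromosome coordinates as mm10) as 300 bases around each RefSeq start, most of them upstream. That start lay 3852 bases from the start in the count table for Kif2c and 1521 bases for Kif7. TTTGAA or its reverse complement TTCAAA stood in the promoter of 10 of 12 mitotic kinesins with an entry, of 1 of 10 transport and of 2 of 10 other kinesins. The transport kinesin was Kif1a, which holds it only at a second RefSeq start 19394 bases from the counted one. Of all 32851 promoters of this length 17.9% hold it. Within 25 bases of the start, a window chosen after the positions were seen, it stood in 8 of 12 mitotic (Kif11, Kif15, Kif18b, Kif20b, Kif22, Kif23, Kif4 and Kifc1), 0 of 10 transport and 1 of 10 other kinesins (Kif26b), and in 2.72% of all promoters. CCAAT or ATTGG stood in 8 of 12 mitotic, 3 of 10 transport and 4 of 10 other kinesins and in 37.4% of all promoters. The element did not divide the called from the uncalled mitotic kinesins, since Kif14, which rose, holds it only 228 bases before its start, and Kif23, which did not pass, holds it at the start. A match of letters is a description and not a binding site.

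The 5 promoters below are those of the 3 mitotic kinesins that rose, of Kif23, and of the transport kinesin Kif3c, in which neither motif was found. They are written 5′ to 3′ on the gene's strand, with both motifs, in either orientation, in capitals. Positions are chr19:37376132-37376431 (plus strand) for Kif11, chr9:122950831-122951130 (plus) for Kif15, chr1:136467598-136467897 (plus) for Kif14, chr9:61946750-61947049 (minus) for Kif23 and chr12:3364882-3365181 (plus) for Kif3c.
Kif11: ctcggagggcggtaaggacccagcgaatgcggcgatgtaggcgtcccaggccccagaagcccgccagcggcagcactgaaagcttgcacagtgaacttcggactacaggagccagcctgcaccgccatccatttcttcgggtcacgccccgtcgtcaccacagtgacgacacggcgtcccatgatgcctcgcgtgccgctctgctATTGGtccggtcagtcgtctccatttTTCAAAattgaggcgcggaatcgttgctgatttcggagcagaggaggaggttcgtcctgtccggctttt
Kif15: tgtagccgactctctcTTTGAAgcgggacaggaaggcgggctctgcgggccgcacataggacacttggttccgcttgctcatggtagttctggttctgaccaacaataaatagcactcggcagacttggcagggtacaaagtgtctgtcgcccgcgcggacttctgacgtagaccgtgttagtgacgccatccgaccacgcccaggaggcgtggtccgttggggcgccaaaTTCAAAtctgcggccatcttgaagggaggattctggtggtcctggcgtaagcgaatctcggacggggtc
Kif14: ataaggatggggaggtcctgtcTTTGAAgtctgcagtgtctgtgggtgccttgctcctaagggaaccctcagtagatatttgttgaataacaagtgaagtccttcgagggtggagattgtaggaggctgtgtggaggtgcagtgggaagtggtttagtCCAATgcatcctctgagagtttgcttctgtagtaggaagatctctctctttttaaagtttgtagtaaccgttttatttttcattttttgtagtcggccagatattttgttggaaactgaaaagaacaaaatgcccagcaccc
Kif23: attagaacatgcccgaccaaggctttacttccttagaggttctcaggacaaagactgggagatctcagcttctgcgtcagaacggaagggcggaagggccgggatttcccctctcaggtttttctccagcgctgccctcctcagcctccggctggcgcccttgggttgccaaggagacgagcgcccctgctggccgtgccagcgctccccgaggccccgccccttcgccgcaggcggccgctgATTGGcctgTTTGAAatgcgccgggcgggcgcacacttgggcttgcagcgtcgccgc
Kif3c: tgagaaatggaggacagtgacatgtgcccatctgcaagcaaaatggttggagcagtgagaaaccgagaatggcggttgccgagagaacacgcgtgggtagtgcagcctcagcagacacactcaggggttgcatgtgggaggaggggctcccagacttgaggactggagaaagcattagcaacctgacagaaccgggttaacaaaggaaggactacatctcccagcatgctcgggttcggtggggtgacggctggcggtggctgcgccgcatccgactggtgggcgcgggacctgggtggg
In Kif11 and Kif15 the element lies in reverse orientation 19 bases before the start, and in Kif23 it follows the start directly. Kif11 and Kif23 hold ATTGG upstream of it. Kif15 holds neither CCAAT nor ATTGG, and in Kif14 the CCAAT lies between the distant TTTGAA and the start.

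Some partners of the mitotic kinesins also rose. In a list of 43 spindle, kinetochore and cytokinesis genes, 13 rose and 0 fell by edgeR, with 42 above 0 and a median of 0.56. At an unadjusted p under 0.05 edgeR found 1 lower, Zwint, looked up after the count was seen. DESeq2 and limma-voom called 0 lower at an adjusted p under 0.05. The shares called by edgeR were 30.2% higher and 0.0% lower, beside 15.7% and 16.5% of all tested genes. Espl1, which encodes the cohesin protease separase, had 62.8, 47.7, 58.4 and 45.9 CPM with anti-LIF and 31.6, 22.0, 30.5 and 31.5 CPM with IgG (0.90 ± 0.15, adjusted p = 0.00492). Incenp, a scaffold of the chromosomal passenger complex, rose by 0.59 ± 0.11, the kinetochore gene Kntc1 by 1.03 ± 0.24, Mki67 by 0.73 ± 0.17 and the topoisomerase gene Top2a by 0.98 ± 0.23. Cenpe, the kinetochore motor kinesin-7 whose symbol lies outside the pattern used here, had 24.6, 22.2, 33.7 and 25.8 CPM with anti-LIF and 22.3, 10.8, 14.1 and 21.9 CPM with IgG and did not pass (0.62 ± 0.24, adjusted p = 0.0792). KPCL-PCC_343_G was again lowest. With libraries scaled by size alone, where the median of all tested genes was -0.16, 5 spindle genes rose and 1 fell. The 13 were 7, 6 and 6 without KPCL-PCC_203_G, KPCL-PCC_343_G and KPCL-PCC_345_G, and 8 and 5 without KPCL-PCC_310_GA and KPCL-PCC_354_GA.

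The transport class was drawn from the kinesin-1, kinesin-2, kinesin-3 and kinesin-14 families, and each had a member that fell. Kif5c, Kif3c, Kifc2, Kif1b and Kif1c fell, 1.21- to 2.42-fold. Of the 15 transport kinesins 33.3% were called lower, against 16.5% of all tested genes. By edgeR 0 were called higher, 1 (Kif13a) at an unadjusted p under 0.05, while DESeq2 called Kif13a higher and limma-voom called 0. Log2 fold changes lay below 0 for 9 of 15 members and stayed below 0 in those 9 under every alternative that gave a value, which was 18 for each but Kif17, with 17. The arms did not overlap for 6 members in the lower direction, against 18.2% of all tested genes.

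Kif3c (chromosome 12, 3365132 to 3406494), a kinesin-2 motor subunit best known in neurons that pairs with Kif3b, had 21.7, 26.2, 28.4 and 33.6 CPM in the anti-LIF libraries and 48.4, 54.2, 39.8 and 55.9 CPM in the IgG libraries. It fell 1.80-fold (-0.85 ± 0.15, adjusted p = 0.00614), and its call held under all 18 alternatives. The partners Kif3a and Kif3b did not pass. Kif3b stood at 165, 129, 153 and 149 CPM with anti-LIF and 118, 148, 146 and 118 CPM with IgG (0.17 ± 0.11, adjusted p = 0.280). For each 100 Kif3b counts there were 13.2, 20.4, 18.5 and 22.6 Kif3c counts with anti-LIF and 41.0, 36.7, 27.2 and 47.3 with IgG. No scaling can change this ratio within a library, and its arms did not overlap, but it rests on the same Kif3c counts as the call. For Kif3a per 100 Kif3b counts and for Kif20b per 100 Kif20a counts the arms overlapped. Exons of Kif3c overlap 1110002L01Rik over 2617 bases and Gm48512 over 588 bases on the opposite strand, and their reads cannot be told apart here. Kif3a was uneven in the anti-LIF arm, with 111, 37.1, 64.6 and 51.8 CPM, against 61.2, 58.7, 63.2 and 63.7 CPM with IgG.

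Kif5c (chromosome 2, 49619314 to 49774778), a neuron-enriched heavy chain of conventional kinesin, had 3.83, 13.6, 7.23 and 13.6 CPM with anti-LIF and 18.3, 30.6, 19.5 and 23.8 CPM with IgG. The arms were apart, with KPCL-PCC_227_GA lowest and KPCL-PCC_343_G highest. It fell 2.42-fold (-1.27 ± 0.37, adjusted p = 0.0306), a call that was lost without KPCL-PCC_343_G (-1.11), KPCL-PCC_393_G (-1.26) or KPCL-PCC_354_GA (-1.16), with adjusted p up to 0.0832. Its ubiquitous relative Kif5b had 176, 205, 186 and 177 CPM with anti-LIF and 208, 210, 188 and 218 CPM with IgG and did not pass (-0.15 ± 0.084, adjusted p = 0.203). There were 2.18, 6.61, 3.88 and 7.65 Kif5c counts per 100 Kif5b counts with anti-LIF and 8.78, 14.6, 10.3 and 10.9 with IgG, again without overlap. The neuronal Kif5a was low, at 2.68 to 5.56 CPM with anti-LIF and 4.76 to 5.93 CPM with IgG (-0.48 ± 0.25, adjusted p = 0.161).

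In kinesin-3, Kif1b (chromosome 4, 149176319 to 149307733), which carries mitochondria and synaptic vesicle precursors, had 134, 114, 130 and 130 CPM with anti-LIF and 155, 175, 147 and 156 CPM with IgG. Kif1b fell 1.25-fold (-0.32 ± 0.086, adjusted p = 0.0233) and lost the call without KPCL-PCC_343_G (-0.27), KPCL-PCC_310_GA (-0.26) or KPCL-PCC_354_GA (-0.32), with adjusted p up to 0.0626. The lowest Kif1b value, that of KPCL-PCC_310_GA, lay apart from the rest of its arm. Kif1c (chromosome 11, 70700548 to 70731970), the most abundant motor, had 248, 266, 236 and 245 CPM with anti-LIF and 304, 299, 276 and 324 CPM with IgG. It fell 1.21-fold (-0.27 ± 0.082, adjusted p = 0.0338), but not without the filter on low counts (-0.27) or without any of KPCL-PCC_203_G (-0.27), KPCL-PCC_343_G (-0.28), KPCL-PCC_393_G (-0.24), KPCL-PCC_227_GA (-0.27), KPCL-PCC_354_GA (-0.24) and KPCL-PCC_391_GA (-0.26), with adjusted p up to 0.0984. The neuronal Kif1a, with 9.004, 21.8, 13.7 and 23.1 CPM with anti-LIF and 35.8, 33.3, 22.5 and 26.8 CPM with IgG, missed the threshold (-0.81 ± 0.29, adjusted p = 0.0601) and passed in 5 of 18 alternatives.

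Kifc2 (chromosome 15, 76660641 to 76668196), a minus-end kinesin-14 described in neurons, had 8.94, 11.2, 9.45 and 11.6 CPM with anti-LIF and 14.6, 15.2, 13.1 and 15.3 CPM with IgG. All anti-LIF values were below all IgG values. It fell 1.41-fold (-0.50 ± 0.13, adjusted p = 0.0188) and lost the call without KPCL-PCC_343_G (-0.48) or KPCL-PCC_354_GA (-0.45). Its exons overlap those of Cyhr1 on the opposite strand over 163 bases. Without KPCL-PCC_343_G the only transport kinesin called lower was Kif3c. Without KPCL-PCC_354_GA these were Kif3c and Kif5a, and without KPCL-PCC_393_G they were Kif1b, Kif3c and Kifc2, 3 in all.

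The remaining transport kinesins did not pass. Kif13a, a carrier from endosomes and Golgi, had 71.8, 75.2, 65.6 and 72.1 CPM with anti-LIF and 65.2, 64.3, 60.9 and 59.5 CPM with IgG (0.19 ± 0.072, adjusted p = 0.0745), with no overlap of arms. Kif13b, Kif16b, which moves early endosomes, and Kifc3 differed by 0.26, 0.018 and 0.21 (adjusted p = 0.199, 0.898 and 0.245). Kif17, a motor of cilia and dendrites, had at most 2.0 CPM in any library (-1.03 ± 0.41, adjusted p = 0.0819).

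**Figure D4:**
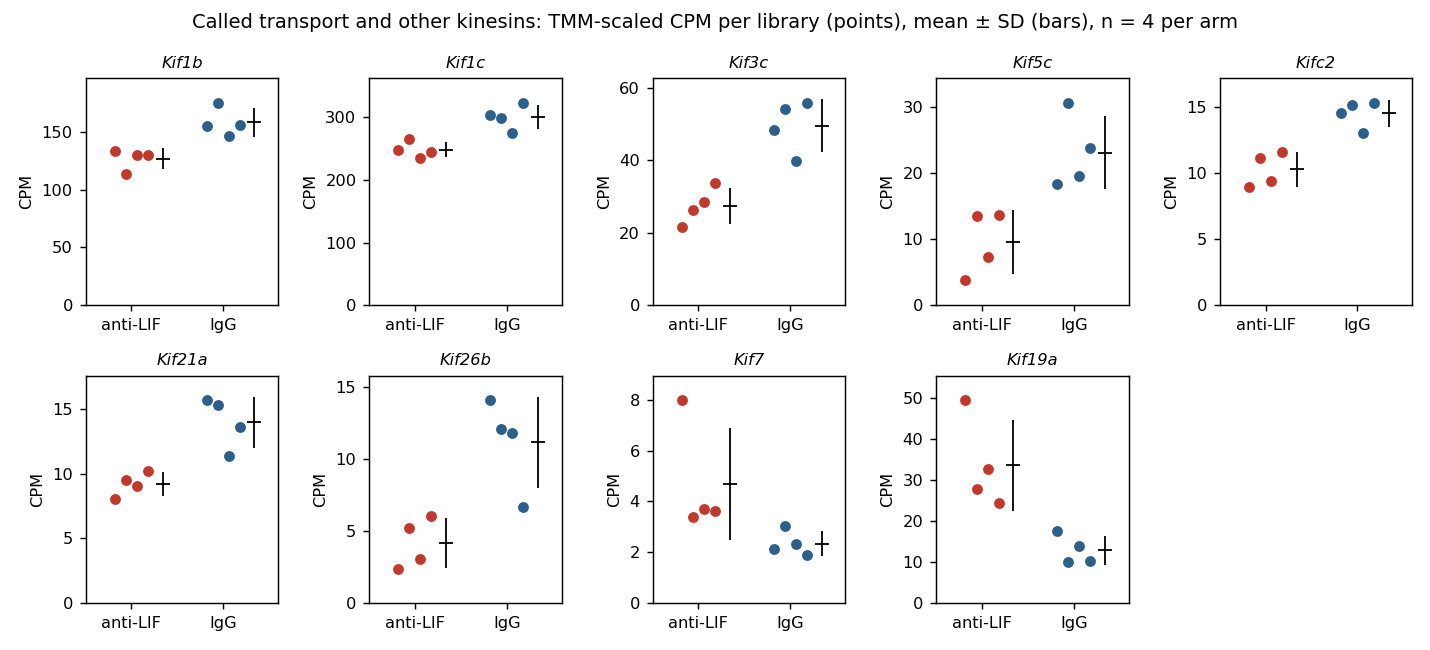
TMM-scaled CPM of the 9 called transport and other kinesins in each library, anti-LIF left and IgG right, with mean ± SD (n = 4 per arm). The arms are apart in every panel, lower with anti-LIF for Kif1b, Kif1c, Kif3c, Kif5c, Kifc2, Kif21a and Kif26b and higher for Kif7 and Kif19a.

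The epithelial list moved with the kinesins that fell: its share of counts was lower in all 4 anti-LIF libraries, and Epcam itself fell by 0.91 ± 0.20 on the log2 scale (adjusted p = 0.0102). A list of 22 endocrine and neural genes, which would mark islet cells or nerve and of which 19 were tested, had 2 higher and 2 lower (10.5% each, beside 15.7% and 16.5% of all tested genes) and held 0.00621% to 0.0208% of counts with anti-LIF and 0.0123% to 0.0278% with IgG. Neither list's part in the fall of Kif3c, Kif5c or Kifc2 was tested.

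Other genes of the transport machinery did not share a direction. Of 21 tested adaptors and light chains 5 rose, Kif1bp among them, and 5 fell (median 0.038), with 2 and 2 left without KPCL-PCC_343_G and 3 and 3 without KPCL-PCC_345_G or KPCL-PCC_354_GA. Each direction held 23.8% of the list, beside 15.7% higher and 16.5% lower of all tested genes. Klc3, a light chain of kinesin-1, fell by 0.99 ± 0.14 and Rab27b, a secretory granule GTPase, by 0.71 ± 0.15. The adaptor gene Mapk8ip3 and Arl8b, which couples lysosomes to kinesin, rose by 0.34 ± 0.076 and 0.30 ± 0.073. Of 26 tested genes of dynein, the motor that runs the other way, and of its cofactors 3 rose and 5 fell (median -0.051), shares of 11.5% and 19.2% that lie near those of all tested genes, with 1 higher without any of KPCL-PCC_203_G, KPCL-PCC_343_G, KPCL-PCC_345_G, KPCL-PCC_393_G, KPCL-PCC_227_GA and KPCL-PCC_354_GA. Lower calls were 2 without KPCL-PCC_343_G, KPCL-PCC_393_G or KPCL-PCC_354_GA and 3 without KPCL-PCC_345_G, KPCL-PCC_227_GA or KPCL-PCC_310_GA. The adaptors Hook2 and Hook1 fell by 0.68 ± 0.084 and 0.97 ± 0.14, Ndel1 fell by 0.35 ± 0.094 and the dynactin subunit gene Dctn5 rose by 0.58 ± 0.11. Adjusted p was at most 0.0231 for each gene named here other than Kif1bp. The binding protein gene Kif1bp stood at 38.4, 29.2, 35.8 and 30.8 CPM with anti-LIF and 26.4, 23.7, 25.8 and 29.9 CPM with IgG and was called at the edge of the threshold (0.34 ± 0.12, adjusted p = 0.0495), with overlapping arms. That call was lost in 13 of 18 alternatives, including without KPCL-PCC_203_G (0.34), KPCL-PCC_343_G (0.29), KPCL-PCC_345_G (0.33), KPCL-PCC_227_GA (0.28), KPCL-PCC_354_GA (0.32) or KPCL-PCC_391_GA (0.39).

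Among the other kinesins 4 members changed, and these included the largest rise and the largest fall of the superfamily. Kif19a (chromosome 11, 114765389 to 114790575) encodes a depolymerase that limits the length of motile cilia. It had 49.4, 27.7, 32.6 and 24.4 CPM with anti-LIF and 17.5, 10.1, 13.8 and 10.2 CPM with IgG, with the arms apart and KPCL-PCC_227_GA highest. Kif19a rose 2.61-fold (1.38 ± 0.26, adjusted p = 0.00682), and the call held under all 18 alternatives. KPCL-PCC_227_GA also had the highest share of myeloid counts, 4.94%, and the lowest of epithelial counts, 0.228%. The part of these shares was not tested.

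Kif26b (chromosome 1, 178529125 to 178932857), a kinesin without ATPase activity that acts in cell adhesion of the embryonic kidney, had 2.36, 5.21, 3.03 and 6.04 CPM with anti-LIF and 14.1, 12.1, 11.8 and 6.65 CPM with IgG. The arms came close at KPCL-PCC_391_GA and KPCL-PCC_393_G without overlap. It fell 2.68-fold (-1.42 ± 0.34, adjusted p = 0.0146), under all 18 alternatives. Its exons overlap Gm16564 over 909 bases on the opposite strand. A list of 12 fibroblast genes, of which 1 rose and 0 fell (8.33% and 0.0%, beside 15.7% and 16.5% of all tested genes), held 0.0257%, 0.0828%, 0.0645% and 0.101% of counts with anti-LIF and 0.0762%, 0.027%, 0.037% and 0.0956% with IgG.

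Kif21a (chromosome 15, 90933275 to 91049951), which restrains microtubule growth at the cell cortex, had 8.05, 9.48, 9.02 and 10.2 CPM with anti-LIF and 15.7, 15.3, 11.3 and 13.6 CPM with IgG. It fell 1.52-fold (-0.61 ± 0.14, adjusted p = 0.0140), also under all 18 alternatives. The paralog Kif21b, common in leukocytes and neurons, had 79.1, 91.0, 117 and 119 CPM with anti-LIF and 90.3, 94.8, 94.0 and 97.6 CPM with IgG and did not pass (0.11 ± 0.13, adjusted p = 0.554). Kif21a counts per 100 Kif21b counts were 10.2, 10.4, 7.70 and 8.58 with anti-LIF and 17.3, 16.2, 12.1 and 14.0 with IgG.

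Kif7 (chromosome 7, 79698098 to 79714186), the ciliary-tip regulator of Hedgehog signalling, was sparse, with 7.98, 3.40, 3.71 and 3.63 CPM with anti-LIF and 2.12, 3.02, 2.33 and 1.89 CPM with IgG. It rose 2.0-fold (1.00 ± 0.32, adjusted p = 0.0422), and the single high value of KPCL-PCC_227_GA weighs on the size: without that library the log2 fold change was 0.61 and not called. The call was also lost without KPCL-PCC_203_G (0.95), KPCL-PCC_343_G (1.14), KPCL-PCC_345_G (0.99), KPCL-PCC_393_G (0.91) or KPCL-PCC_354_GA (1.11), by library size alone (0.81), with limma-voom (0.92) and on FPKM (0.30 and 0.68 at pseudocounts of 1 and 0.1), with adjusted p up to 0.099. Exons of Kif7 overlap 9330171B17Rik over 877 bases and Ticrr over 51 bases on the opposite strand.

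Kif12, a kinesin of kidney and bile duct epithelium, had 6.58, 16.9, 13.0 and 14.6 CPM with anti-LIF and 19.9, 20.8, 22.1 and 17.0 CPM with IgG, apart by a narrow margin, and missed the threshold (-0.65 ± 0.25, adjusted p = 0.0798). Kif2a, Kif9, Kif24 and Kif27 differed by -0.061, 0.48, 0.051 and -0.17, none of them called. Kif6 and Kif26a had 5 and 27 counts with anti-LIF and 13 and 29 with IgG and were too sparse to test, as were Kif16bos (3 counts with anti-LIF and 2 with IgG) and Kif4-ps (3 counts with anti-LIF and 6 with IgG).

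Genes that work with the ciliary kinesins changed in both directions. Of 28 cilium and Hedgehog genes 2 rose and 4 fell, 7.14% and 14.3% beside 15.7% and 16.5% of all tested genes (median -0.16). The rises were 1 without any of KPCL-PCC_203_G, KPCL-PCC_343_G, KPCL-PCC_345_G, KPCL-PCC_393_G, KPCL-PCC_227_GA and KPCL-PCC_354_GA, and the falls 2 without KPCL-PCC_354_GA. Ift57 fell by 0.67 ± 0.12, Bbs2 by 0.63 ± 0.16 and Ttc8 by 0.55 ± 0.13, while Ift80 rose by 0.74 ± 0.17, with adjusted p at most 0.0173. These encode subunits of the intraflagellar transport trains that kinesin-2 pulls and of the BBSome, their cargo adaptor.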

How the data were processed

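RNA-seq of EpCAM-positive tumour cells from 8 mice was used, 4 mice per arm, so the replicates are separate animals. Per the submitters' processing notes, the authors used FastQC 0.11.2, STAR 2.4.0k, HOMER and edgeR 3.6.8. Per the file headers, the deposited raw counts are reads in exons of mm10, with transcripts of a gene condensed; no source used here gives the strand setting. Per the file headers, the authors' deposited FPKM values are scaled by library total, from 18954525 to 24681702 reads; 10 of 43 members are represented by another transcript there than in the counts. There were 0 unused per-sample columns.

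Counts were fitted in R 4.3.3 with edgeR 4.0.16 (filterByExpr, TMM, quasi-likelihood test, Benjamini-Hochberg over 14711 genes, threshold 0.05), contrast anti-LIF minus IgG. The standard error is the log2 fold change divided by the square root of F. Alternatives used other scalings, DESeq2 1.42.0, limma 3.58.1, FPKM with pseudocounts, other filters and leaving out each library. The scripts were tested on simulated data. Exon overlap came from GENCODE M21.

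Members and lists were chosen with earlier results of these data known. Every member could be named. Of each partner list the 4 called genes with the lowest p were named, plus Cenpe, Mki67 and Top2a, and of marker lists Epcam, Ptprc and Cd68. Ratios between paralogs and the promoter window near the start were chosen after values were seen. Of the cell type lists not described with the results, lymphoid genes (10 tested) had 3 higher and 0 lower, and endothelial genes (10 tested) 2 higher and 0 lower. Part of the genotype that all mice share is not reported here. Intervals and limits for low counts cover counting error only.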

Additional observations from a re-analysis of the deposited data

Results flagged for a closer look

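In 5 of 76 groups of 4 libraries, 1 library lay far from the other 3 for a kinesin, by Dixon's gap test at its 95% critical value. Chance gives about 1 in 20 groups. Kif20a had 43.0 CPM in the anti-LIF library KPCL-PCC_354_GA, against 29.2 to 31.0 CPM in the other 3 of that arm. Kif7 had 7.98 CPM in the anti-LIF library KPCL-PCC_227_GA, against 3.40 to 3.71 CPM in the others. Kif1b was low in the anti-LIF library KPCL-PCC_310_GA, at 113.6 CPM against 130.2 to 133.6 CPM. Kif17 had 2.0 CPM in the IgG library KPCL-PCC_393_G, against 0.760 to 0.933 CPM. Kif5a had 5.93 CPM in the IgG library KPCL-PCC_343_G, against 4.76 to 4.88 CPM.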

How the results depend on the processing

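No value changed direction among called kinesins, and 5 of 12 called motors (Kif15, Kif3c, Kif19a, Kif26b and Kif21a) kept their call under all 18 alternatives. The other 7 lost it at least once, and 7 of 25 uncalled motors gained one at least once. With library size alone, kinesins called higher were 2, mitotic 1 and other kinesins 1; spindle genes were 5 higher and 1 lower, adaptors 2 and 8, dynein genes 1 and 10, cilium genes 0 and 7, and the transport median was -0.43. On log2(FPKM + 1), kinesins higher were 3 and other kinesins 1, spindle genes 6 higher and 1 lower, adaptors 2 higher, dynein genes 1 and 9, cilium genes 1 and 7. On log2(FPKM + 0.1), kinesins higher were 2, mitotic 1 and other kinesins 1, spindle genes 5 higher and 1 lower, adaptors 2 higher, dynein genes 1 and 9, cilium genes 0 higher, and the transport median was -0.40. DESeq2 called 1 transport kinesin higher, limma-voom 1 other kinesin higher, and voom with quality weights 1 dynein gene higher; with no filter 3 dynein genes were lower. The cause was not tested. Without 1 library, kinesins called higher ranged from 2 to 5 and lower from 3 to 7, mitotic higher from 1 to 3, transport lower from 1 to 5, other kinesins higher from 1 to 3 and lower from 2 to 3. Spindle genes higher ranged from 5 to 15, adaptors higher from 2 to 5 and lower from 2 to 6, dynein genes higher from 1 to 3 and lower from 2 to 4, cilium genes higher from 1 to 2 and lower from 2 to 4. The mitotic median ranged from 0.34 to 0.66 and the transport median from -0.31 to -0.24. The filter of at least 1 CPM in 4 libraries gave no value for Kif17 and Kif27. No paired analysis was possible because the replicate numbers are mouse numbers and no number occurs in both arms.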
